A study of Rattus norvegicus with 8 samples.

Results

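Microglia, macrophage and complement genes were followed in a comparison of large and small retinal ganglion cells of the rat. The set was fixed by name as 39 genes, and a gene was measured where a probe of the array carried its symbol alone, which gave 66 probes for 38 of the 39 genes, out of 14802 named genes on the arrays. Il34, which encodes a ligand of the CSF1 receptor, had no such probe. Both cell fractions came from retinas of rats whose ganglion cells had been filled from their axons with the dye 4DI-10ASP, and flow cytometry divided the labelled cells into large and small ones, with actinomycin D present in both to stop new transcription. The sources used here do not give the gate, strain, age or number of animals. RNA of each fraction was amplified in 2 rounds, coupled to Cy5 (large cells, in the labels) or Cy3 (small cells), and both were hybridised to the same Agilent array, so that each of 8 arrays gives a log2 ratio of the fractions. Arrays are called by the number in their title (39, 40, 41, 42, 43, 69, 70 and 71), and are set apart as a first pair (39 and 40), a second pair (41 and 42) and the remaining 4.

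Microglia are the resident macrophages of the retina. They depend on signalling through the CSF1 receptor, carry integrins, purinergic receptors and Fc receptors on their surface, and make the C1q proteins that start the classical complement cascade. Ganglion cells are neurons and do not normally express most of these genes, although Csf1, Gas6, Axl, Mertk, C3 and C4a are made by other retinal cells as well. Of the 38 measured genes, 31 were taken as restricted to myeloid cells and 7 as shared with other cells. The last of these, Hexim1, encodes an inhibitor of transcription elongation and is no marker of microglia, and is kept because the set names it. More or fewer microglia among the sorted cells, and more or less RNA per cell, cannot be told apart on these arrays. A ratio also gives no level, so whether a transcript was above background in either fraction is not known.

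PU.1, the protein of Spi1, is a transcription factor that myeloid cells need and that binds sites with the core GAGGAA. Promoters are shown for 4 genes of the set that stood high together on the first pair of arrays, 3 with this core and 1 without it. Each runs from 250 bases before to 50 bases after the start of the gene, 5′ to 3′ on the strand of the gene, from RefSeq's annotation of build GRCr8, and capitals mark GAGGAA or its reverse complement TTCCTC. They are Itgam (chr1:192089342-192089641, plus strand), Trem2 (chr9:20151730-20152029, minus strand), Lyz2 (chr7:54797962-54798261, minus strand) and C1qa (chr5:154419884-154420183, minus strand).
Itgam: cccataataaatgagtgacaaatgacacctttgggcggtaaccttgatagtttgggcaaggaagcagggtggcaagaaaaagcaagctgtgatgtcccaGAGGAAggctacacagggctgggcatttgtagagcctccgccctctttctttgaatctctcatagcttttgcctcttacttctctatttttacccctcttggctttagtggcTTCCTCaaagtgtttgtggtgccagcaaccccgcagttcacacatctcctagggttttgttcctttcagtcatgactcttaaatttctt
Trem2: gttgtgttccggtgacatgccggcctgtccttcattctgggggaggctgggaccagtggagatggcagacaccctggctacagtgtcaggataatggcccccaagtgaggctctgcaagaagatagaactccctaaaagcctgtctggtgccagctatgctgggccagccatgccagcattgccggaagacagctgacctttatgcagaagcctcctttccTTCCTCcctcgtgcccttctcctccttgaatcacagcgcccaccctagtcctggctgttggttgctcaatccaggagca
Lyz2: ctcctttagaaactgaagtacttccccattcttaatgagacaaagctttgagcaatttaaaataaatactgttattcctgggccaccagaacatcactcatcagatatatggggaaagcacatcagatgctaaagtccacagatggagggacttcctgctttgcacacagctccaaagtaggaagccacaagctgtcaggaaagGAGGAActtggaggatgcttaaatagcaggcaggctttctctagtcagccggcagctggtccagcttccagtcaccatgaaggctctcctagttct
C1qa: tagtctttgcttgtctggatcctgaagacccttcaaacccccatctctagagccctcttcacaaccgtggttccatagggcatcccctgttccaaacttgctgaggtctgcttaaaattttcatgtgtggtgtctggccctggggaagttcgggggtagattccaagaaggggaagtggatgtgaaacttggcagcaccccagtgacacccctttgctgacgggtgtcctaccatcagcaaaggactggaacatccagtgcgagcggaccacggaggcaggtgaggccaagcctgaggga

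The promoter table held 25 of the 39 genes. GAGGAA, searched on both strands, occurred in 14 of these 25 promoters (56%) and in 27.5% of all 27457 promoters of the table. The 14 were those of Axl, C1qb, Cd14, Cd68, Csf1r, Ctss, Itgam, Laptm5, Lyz2, Mrc1, Ptprc, Tlr4, Tlr7 and Trem2. In Itgam the matches began 151 and 39 bases before the gene start, in Lyz2 46 and in Trem2 29 bases before it. A repeat element of interferon regulatory factors occurred in 1 of the 25 promoters, that of Ctss (3.77% of all promoters). This element does not hold the PU.1 core, and a joint element of PU.1 and these factors was not searched. The C/EBP sequence TTNNGCAA, again on both strands, occurred in 6 of 25 (C3, Itgam, Lyz2, P2ry13, Tlr7 and Trem2) against 10.5% of all, and its palindromic form TTGCGCAA in 0 of 25 against 0.197%. The 2 C/EBP searches overlap, since every match of the second is a match of the first. These matches describe letters and are not tested sites.

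The direction of the ratios is not settled. Large cells are Cy5 on all 8 arrays in the labels, although dyes were swapped according to the series' design text, and the numerator of the ratio is not stated. Over all probes, arrays 39, 41, 43 and 70 correlated with one another (Pearson correlation 0.22 to 0.65), and so did arrays 40, 42, 69 and 71 (0.25 to 0.68). Between these sets the correlations ran from -0.32 (39 with 69) to 0.16 (41 with 42). Passes and mean ratios of the set over the 8 arrays are therefore given as deposited and again with arrays 40, 42, 69 and 71 turned. A single gene has its turned value where it is named with it. Counts on single arrays or pairs of arrays, and counts with a pair left out, are for the sign as deposited. Were large cells the numerator, a positive value would mean more RNA in large cells. Each biological replicate had 2 technical subreplicates per the labels, but the arrays that share RNA are not named. P-values treat the 8 arrays as independent and then measure a spread that may be partly technical.

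Taken over the 8 arrays, no gene of the set passed the test (limma, Benjamini-Hochberg adjusted p under 0.05 over 14801 genes), where 2.19% of all genes did. At an unadjusted p under 0.05 there were 9 of 38 genes (23.7%) against 13.1% of all genes, and 8 of 38 with limma's trend and robust variance, against 11.5% of all genes in that fit. Mean ratios lay above 0 for 31 genes and below 0 for 7, and their median was 0.17, against -0.01 over all genes tested. With arrays 40, 42, 69 and 71 turned, the 38 mean ratios lay above 0 for 18 genes and below 0 for 20. Their median was then -0.02. In this turned fit 3 of the 38 genes passed the test, Axl, Spi1 and Tlr7, where 28.1% of all genes did. The adjusted p of the other 35 in the turned limma fit ran from 0.0523 (C4a) to 0.986 (P2ry12), and 4 of 38 had an unadjusted p under 0.05, against 39.9% of all genes.

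Of the 9, 7 lay on the positive side (5.2% of all genes). Without the first pair 0 of 38 passed (2.65% of all genes) and 5 had an unadjusted p under 0.05 (15.5%), namely Itgam, Ptprc, P2ry12, Csf1 and Gas6. Without the second pair 0 of 38 passed (0.385%) and 20 had an unadjusted p under 0.05 (9.57%).

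The genes of the set differed between arrays. The median of the 38 genes was 0.55 on array 39 and 0.57 on array 40, and -0.21 on both arrays of the second pair. It was 0.09, 0.23, 0.11 and 0.21 on the remaining 4. The medians of all genes on the 8 arrays ran from -0.07 to 0.04. On array 39, 30 of the 38 genes lay above 0, on array 40 it was 32, on array 41 it was 9, on array 42 it was 10, and on the other 4 arrays between 25 and 28. The standard deviation over arrays had a median of 0.37 for the 38 genes, from 0.12 (Cd68) to 0.99 (Fcgr2b), against 0.28 for all genes.

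**Figure D1:**
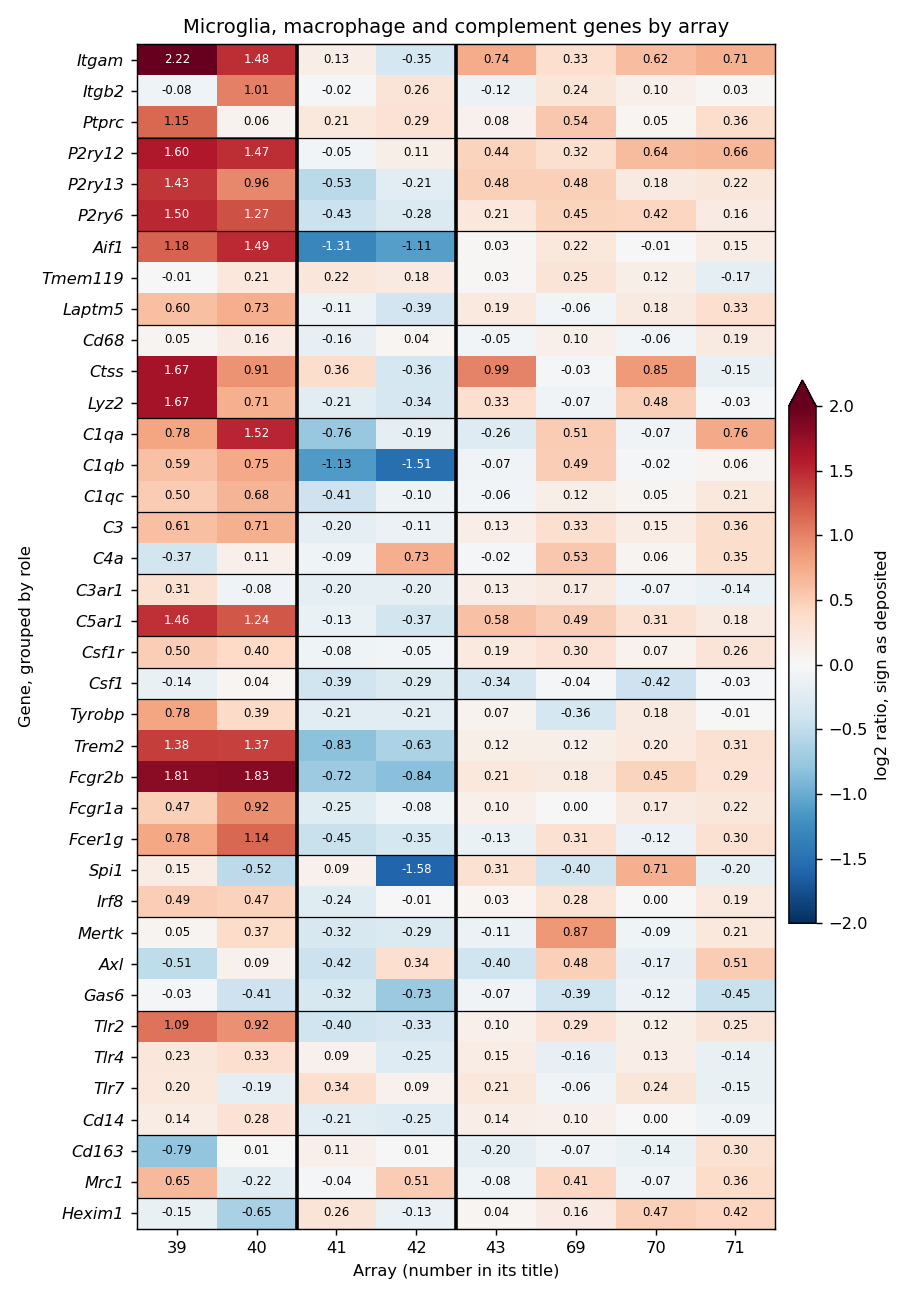
Log2 ratio of each of the 38 genes (rows, grouped by role, thin lines between roles) on each of the 8 arrays (columns), sign as deposited; the number in each cell is its value, and thick lines set arrays 39 and 40, arrays 41 and 42 and the other arrays apart. Most rows are red on arrays 39 and 40, with Itgam at 2.22 on array 39 and Fcgr2b at 1.83 on array 40, and pale or blue on arrays 41 and 42, with C1qb at -1.51 and Spi1 at -1.58 on array 42.

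Both arrays of the first pair lay on the same side of 0 for 28 of 38 genes (48.3% of all genes), and both of the second pair for 27 (49.7%). Above 0 throughout the first pair were 26 genes (20.3%), below 0 throughout the second 23 (24.5%), and below -0.2 there 14 (9.4%). Above 0 on the first pair and below 0 on the second were 20 of 38 genes (52.6%) against 5.51% of all 14665 genes with 8 values, and 0 of 38 showed the opposite order, against 8.73%. They were P2ry13, P2ry6, Aif1, Laptm5, Lyz2, C1qa, C1qb, C1qc, C3, C5ar1, Csf1r, Tyrobp, Trem2, Fcgr2b, Fcgr1a, Fcer1g, Irf8, Mertk, Tlr2 and Cd14, and 18 of them belong to the 31 myeloid-restricted genes. The first pair was the highest 2 of 8 for 22 genes (6.78% of all genes), and the second pair the lowest 2 for 21 (4.84%). Above 0.5 on both arrays of the first pair lay 17 of 38 genes, against 1.59% of all genes. On the remaining 4 arrays 14 genes lay above 0 throughout (8.28%) and 2 below it (8.98%), Csf1 and Gas6. Turning arrays 40, 42, 69 and 71 would put the same 20 genes on opposite sides of 0 on the first pair and again on the second pair.

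Across the 38 genes arrays 39 and 40 correlated at 0.73, against 0.02 across all 14802 genes, and arrays 41 and 42 at 0.50 against 0.17. Array 43 correlated with array 70 at 0.83 (0.68 across all genes), with array 39 at 0.70 (0.40) and with array 41 at 0.33 (0.62), and array 69 with array 71 at 0.58 (0.70). Other neighbours in title number did not correlate in this way, with -0.51 for 40 and 41, -0.19 for 42 and 43, -0.10 for 43 and 69, -0.18 for 69 and 70 and 0.04 for 70 and 71. These correlations are across genes on shared arrays, and genes are not independent replicates. On the remaining 4 arrays the 38 genes thus had the division seen over all probes (43 with 70, 69 with 71). Among arrays 39 to 42 they did not, with -0.21 for 39 and 41 and for 40 and 42. Against the remaining 4, arrays 41 and 42 kept the signs of this division. Array 39 correlated more strongly with 43 and 70 than with 69 and 71, but was positive with both. With 43 and 70, array 39 gave 0.70 and 0.60, array 41 0.33 and 0.35, and array 42 -0.19 and -0.24. With 69 and 71, they gave 0.16 and 0.26, -0.24 and -0.15, and 0.305 and 0.308. Array 40 gave 0.33 and 0.28 with 43 and 70, and 0.32 and 0.435 with 69 and 71. Of the 38 genes, 5 separated the sets without overlap: Spi1, Gas6 and Tlr7 were higher on every array of 39, 41, 43 and 70 than on any of the other 4 (16.9% of all genes), and C4a and Axl were lower (18.1% of all genes). The arrays were set apart with earlier results of these data known, so the counts are a description with no test.

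**Figure D2:**
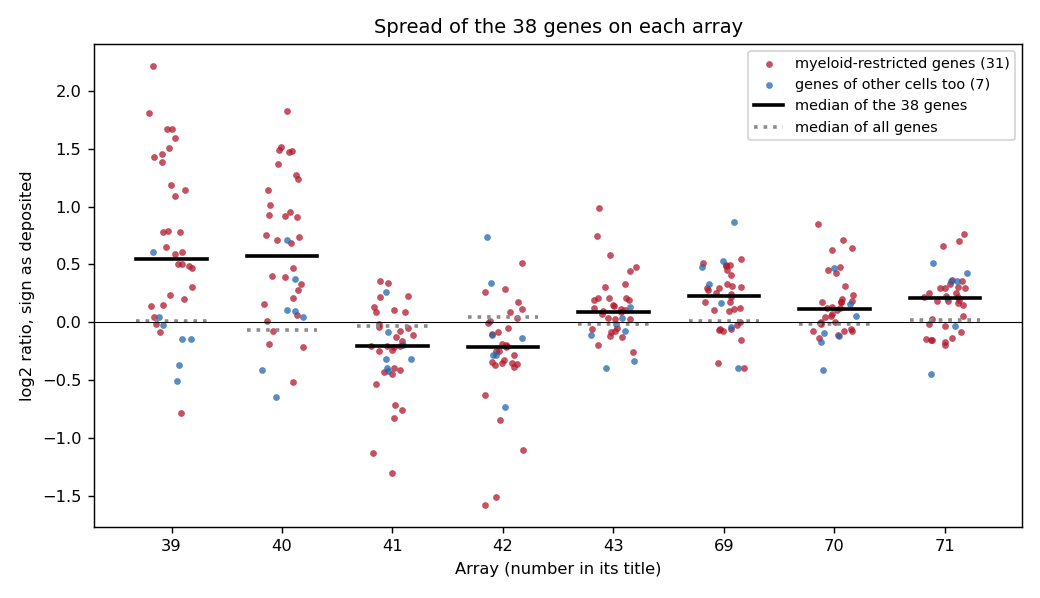
Log2 ratios of the 31 myeloid-restricted genes (red points) and the 7 genes that other cells make too (blue points) on each array, with the median of the 38 genes as a black line and the median of all genes as a dotted grey line. The black line stands at 0.55 and 0.57 on arrays 39 and 40, at -0.21 on arrays 41 and 42, and from 0.09 to 0.23 on the others, while the grey line stays between -0.07 and 0.04.

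**Figure D3:**
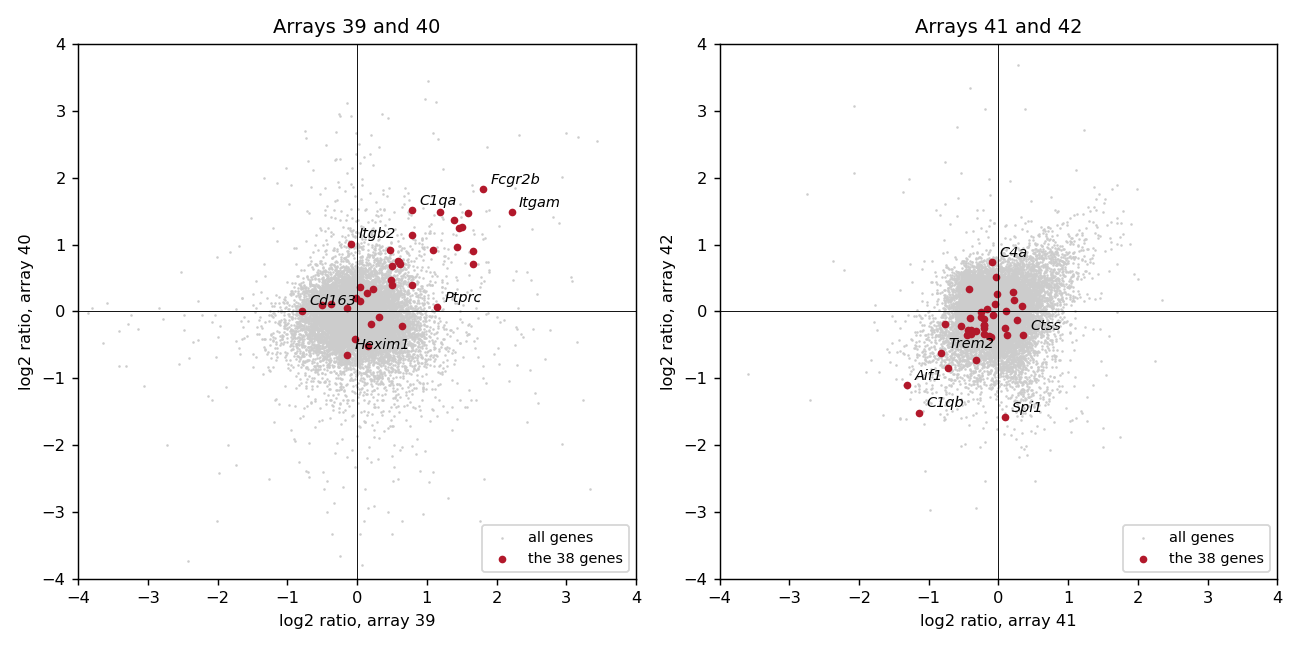
Log2 ratio of every gene on array 39 against array 40 (left) and on array 41 against array 42 (right), sign as deposited, with all genes in grey and the 38 genes in red; axes end 4 log2 units from 0, which leaves 17 genes outside the left panel and 1 outside the right, none of them among the 38. The red points extend into the upper right quadrant on the left, up to Itgam and Fcgr2b, and mostly lie in the lower left quadrant on the right, down to Aif1 and C1qb.

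Among surface and adhesion receptors, Itgam encodes the alpha chain of complement receptor 3, the integrin CD11b by which microglia are commonly identified, and Itgb2 its beta chain. Itgam lay at 2.22 on array 39 (4.65-fold, above 99.7% of genes), 1.48 on array 40, 0.13 on array 41, -0.35 on array 42, 0.74 on array 43, 0.33 on array 69, 0.62 on array 70 and 0.71 on array 71. It had the highest mean ratio of the set, 0.74 ± 0.80 (SD, n = 8), was positive on 7 of 8 arrays and did not pass the test (limma adjusted p = 0.184). Without the first pair its mean was 0.36, and with arrays turned it was 0.19 ± 1.10 (limma adjusted p = 0.702). Its partner Itgb2 did not share this profile: it lay at 1.01 on array 40, but between -0.12 and 0.26 on the other 7 arrays, with a mean of 0.18 ± 0.36. Ptprc, the leukocyte phosphatase CD45, was the single gene of the set above 0 on 8 of 8 arrays (1.56% of all genes), from 0.05 to 1.15 with a mean of 0.34 ± 0.37 (limma adjusted p = 0.216). Its 1.15 on array 39 rested on 1 of 4 probes, at 3.5, beside 0.27, 0.37 and 0.46.

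Among purinergic receptors, P2ry12 senses ADP released from injured cells and is a hallmark of resting microglia. It lay at 1.60 on array 39, 1.47 on array 40, -0.05 on array 41, 0.11 on array 42, 0.44 on array 43, 0.32 on array 69, 0.64 on array 70 and 0.66 on array 71. The pair 39 and 40 was highest and the pair 41 and 42 lowest, without overlap with the other 4 arrays. The mean was 0.65 ± 0.60 (limma adjusted p = 0.118), 0.35 without the first pair (adjusted p = 0.142), 0.85 without the second pair (adjusted p = 0.0999), and 0.01 ± 0.92 with arrays turned (adjusted p = 0.986). P2ry13, a second ADP receptor, lay at 1.43 and 0.96 on the first pair, at -0.53 and -0.21 on the second pair, and between 0.18 and 0.48 on the rest. P2ry6, the UDP receptor that triggers phagocytosis by microglia, had 1.5 and 1.27, then -0.43 and -0.28, and between 0.16 and 0.45 on the rest. All 3 receptors had the first pair highest and the second lowest, with means from 0.38 to 0.65, and none passed the test.

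Among cytoplasmic and identity markers, Aif1 encodes IBA1, the calcium-binding protein most used to stain microglia. It lay at 1.18 on array 39, 1.49 on array 40, -1.31 on array 41 and -1.11 on array 42, the widest gap between the pairs among the identity markers, and between -0.01 and 0.22 on the other 4 arrays. Its mean of 0.08 ± 0.97 (limma adjusted p = 0.968) gives none of this order. On array 41 only 0.26% of genes lay below it, and on array 42 only 1.82%. Laptm5, a lysosomal membrane protein of leukocytes, followed with 0.60 and 0.73 on the first pair, -0.11 and -0.39 on the second pair, and a mean of 0.19 ± 0.37. Tmem119, a membrane protein that separates microglia from other macrophages, lay between -0.17 and 0.25 on all 8 arrays (mean 0.10 ± 0.15) and did not show this order.

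Among lysosomal proteins, Ctss, the microglial protease cathepsin S, had the third highest mean of the set (0.53 ± 0.69, limma adjusted p = 0.293). It lay at 1.67 on array 39, 0.91 on array 40, 0.36 on array 41, -0.36 on array 42, 0.99 on array 43, -0.03 on array 69, 0.85 on array 70 and -0.15 on array 71. Arrays 39, 41, 43 and 70 were each higher than the array next in title order. Turned, its mean was 0.44 ± 0.76 (limma adjusted p = 0.19). Lyz2, the lysozyme of myeloid cells, had 1.67 and 0.71 on the first pair, -0.21 and -0.34 on the second pair, 0.33 on array 43, 0.48 on array 70, -0.07 on array 69 and -0.03 on array 71. Cd68, a lysosomal glycoprotein of macrophages, stayed between -0.16 and 0.19 (mean 0.03 ± 0.12 over 3 probes), the smallest spread of the set.

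The C1q protein, made by microglia in the nervous system, is built of chains encoded by C1qa, C1qb and C1qc, which lie next to one another in the genome. C1qa lay at 0.78 on array 39, 1.52 on array 40, -0.76 on array 41, -0.19 on array 42, -0.26 on array 43, 0.51 on array 69, -0.07 on array 70 and 0.76 on array 71. C1qb lay at 0.59, 0.75, -1.13, -1.51, -0.07, 0.49, -0.02 and 0.06 in the same order of arrays, and C1qc at 0.50, 0.68, -0.41, -0.10, -0.06, 0.12, 0.05 and 0.21. In the mean over probes, all 3 chains had arrays 39 and 40 as the highest pair and lay below 0 on arrays 41, 42 and 43. This did not hold for every probe. One C1qb probe had -0.04 and 0.13 on arrays 39 and 40, and 0.92 on array 69. One C1qa probe had 0.39 on array 39, but 0.69 on array 69 and 0.90 on array 71. One C1qc probe had 0.21 on array 43, and another 0.10 on array 42. The means of the chains were 0.29 ± 0.74 for C1qa, -0.11 ± 0.82 for C1qb and 0.12 ± 0.35 for C1qc, all smaller than their spread (limma adjusted p from 0.716 to 0.95).

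C3, the component on which the complement pathways converge, lay at 0.61 and 0.71 on the first pair, at -0.20 and -0.11 on the second pair, and between 0.13 and 0.36 on the others (mean 0.25 ± 0.32, limma adjusted p = 0.353). C4a, the classical pathway component cleaved after C1q is activated, went another way, with -0.37 on array 39, 0.11 on array 40, -0.09 on array 41 and 0.73 on array 42, and was higher on every array of 40, 42, 69 and 71 than on any other. Turned, its mean was -0.27 ± 0.28 (limma adjusted p = 0.0523). Of the receptors for the anaphylatoxins released by cleavage of C3 and C5, C5ar1 lay at 1.46 on array 39, 1.24 on array 40, -0.13 on array 41, -0.37 on array 42, 0.58 on array 43, 0.49 on array 69, 0.31 on array 70 and 0.18 on array 71 (mean 0.47 ± 0.63, limma adjusted p = 0.314). C3ar1 stayed between -0.20 and 0.31 with a mean of -0.01 ± 0.19.

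Csf1r, the receptor kinase that keeps microglia alive, lay at 0.50 on array 39, 0.40 on array 40, -0.08 on array 41, -0.05 on array 42, 0.19 on array 43, 0.30 on array 69, 0.07 on array 70 and 0.26 on array 71. Its mean was 0.20 ± 0.21 over 3 probes (limma adjusted p = 0.301) and -0.03 ± 0.29 with arrays turned. The ligand gene Csf1 lay on the other side, below 0 on 7 of 8 arrays, with the lowest at -0.42, the median at -0.21 and the highest at 0.04. Its mean of -0.20 ± 0.18 did not pass the test (limma adjusted p = 0.239), nor with arrays turned (-0.12 ± 0.25, adjusted p = 0.311).

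Trem2 is a lipid-sensing receptor of microglia that signals through the adaptor Tyrobp. Trem2 lay at 1.38 on array 39, 1.37 on array 40, -0.83 on array 41, -0.63 on array 42, 0.12 on array 43, 0.12 on array 69, 0.20 on array 70 and 0.31 on array 71. Its mean was 0.25 ± 0.80 (limma adjusted p = 0.79), -0.12 without the first pair and 0.58 without the second pair. Tyrobp had 0.78 and 0.39 on the first pair, -0.21 on both arrays of the second pair, and between -0.36 and 0.18 on the others, so that array 69 lay lowest. Fcgr2b, the inhibitory receptor for IgG, lay at 1.81 on array 39, 1.83 on array 40, -0.72 on array 41, -0.84 on array 42, 0.21 on array 43, 0.18 on array 69, 0.45 on array 70 and 0.29 on array 71. It had the largest spread of the set, above 99.5% of genes on array 39 and 99.6% on array 40 and above no more than 4.11% on the second pair, at a mean of 0.40 ± 0.99 (limma adjusted p = 0.698). Fcer1g, the signalling chain of activating Fc receptors, had 0.78 and 1.14, then -0.45 and -0.35, and Fcgr1a, the high-affinity IgG receptor, 0.47 and 0.92, then -0.25 and -0.08.

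Of the transcription factors, Spi1, the gene of PU.1, was not high on the first pair and low on the second. It lay at 0.15 on array 39, -0.52 on array 40, 0.09 on array 41, -1.58 on array 42, 0.31 on array 43, -0.40 on array 69, 0.71 on array 70 and -0.20 on array 71, so every array of 39, 41, 43 and 70 was above 0 and every other array below it. Its mean was -0.18 ± 0.69 as deposited (limma adjusted p = 0.853) and 0.49 ± 0.48 with arrays turned, positive on 8 of 8 (adjusted p = 0.0352). Spi1 had 1 probe. Irf8, which microglia need together with PU.1, had 0.49 and 0.47 on the first pair, -0.24 and -0.01 on the second pair, and between 0.00 and 0.28 on the others.

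Mertk and Axl are receptor kinases that mediate the uptake of dying cells, and Gas6 is a ligand that bridges them to phosphatidylserine. Gas6 was below 0 on 8 of 8 arrays (2.88% of all genes), at -0.03 on array 39, -0.41 on array 40, -0.32 on array 41, -0.73 on array 42, -0.07 on array 43, -0.39 on array 69, -0.12 on array 70 and -0.45 on array 71. Its mean of -0.32 ± 0.24 (1.24-fold) had the lowest adjusted p of the set (limma adjusted p = 0.101) and passed when the division of arrays seen over all probes was a covariate (limma adjusted p = 0.0127), where 6.27% of all genes passed. With arrays turned it was 0.18 ± 0.36 (adjusted p = 0.274), and the 3 probes of Gas6 had means of -0.64, -0.28 and -0.04. No single probe was below 0 on all 8 arrays. In the same order, the probes had 0.49 on array 39, 0.10 on array 71 and 0.44 on array 41. Nor did any single Gas6 probe separate arrays 39, 41, 43 and 70 from the others, as the mean over probes did. Axl lay at -0.51, -0.42, -0.40 and -0.17 on arrays 39, 41, 43 and 70 and at 0.09, 0.34, 0.48 and 0.51 on arrays 40, 42, 69 and 71, so the sets did not overlap. Its mean was -0.01 ± 0.42 as deposited (limma adjusted p = 0.991) and -0.37 ± 0.16 with arrays turned, negative on 8 of 8 (adjusted p = 0.00224). Mertk ranged from -0.32 on array 41 to 0.87 on array 69, with a mean of 0.09 ± 0.39.

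Tlr2, the receptor for bacterial lipoproteins, lay at 1.09 and 0.92 on the first pair, at -0.40 and -0.33 on the second pair, and between 0.10 and 0.29 on the rest (mean 0.26 ± 0.53, limma adjusted p = 0.613). Tlr4, the receptor for endotoxin, stayed between -0.25 and 0.33, and its co-receptor gene Cd14 between -0.25 and 0.28. Tlr7, a sensor of single-stranded RNA, lay between -0.19 and 0.34, with arrays 39, 41, 43 and 70 all higher than the other 4. Its mean was 0.08 ± 0.20 as deposited (limma adjusted p = 0.777) and 0.16 ± 0.13 with arrays turned, positive on 7 of 8 (adjusted p = 0.0469). Of the 2 Tlr7 probes only 1 separated these sets, with at least 0.31 on arrays 39, 41, 43 and 70 and at most 0.04 on the others. The second probe did not, with 0.02 on array 39 and 0.08 on array 70 beside 0.215 on array 69 and 0.13 on array 42.

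Cd163, a haemoglobin scavenger receptor, and Mrc1, the mannose receptor, mark macrophages along vessels more than microglia. Neither had arrays 39 and 40 on top: Cd163 lay at -0.79 on array 39 and between -0.20 and 0.30 on the other 7 arrays, and Mrc1 had 0.65 on array 39, -0.22 on array 40 and 0.51 on array 42. Their means were -0.10 ± 0.32 and 0.19 ± 0.33. The -0.79 of Cd163 on array 39 rested on 1 of 2 probes, at -1.49 beside -0.09. Hexim1 had -0.15 and -0.65 on the first pair, 0.26 and -0.13 on the second pair, and between 0.04 and 0.47 on the others (mean 0.05 ± 0.36).

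**Figure D4:**
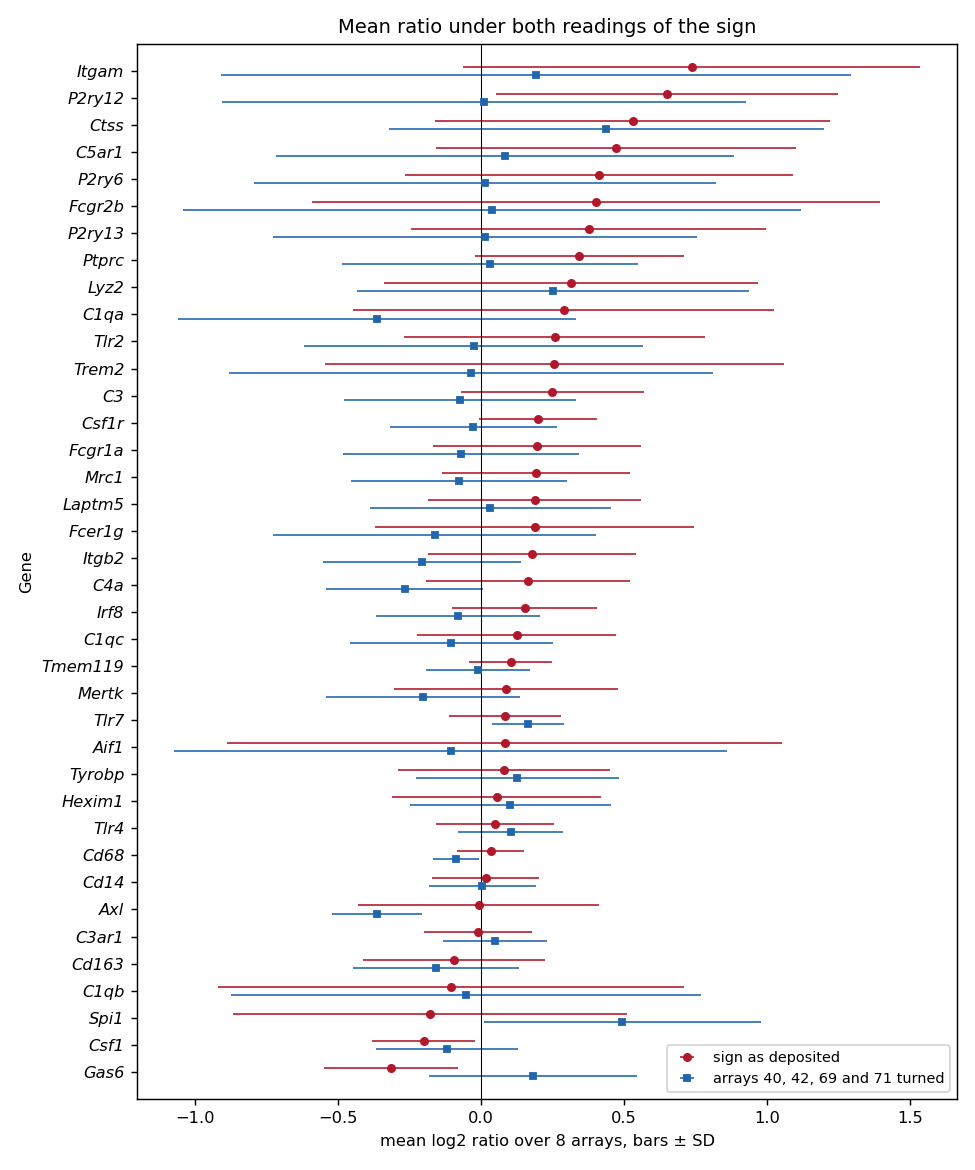
Mean log2 ratio over 8 arrays of each of the 38 genes, with bars of 1 SD, sign as deposited (red circles) and with arrays 40, 42, 69 and 71 turned (blue squares), ordered by the deposited mean. Itgam at 0.74 ± 0.80 and Gas6 at -0.32 ± 0.24 are the ends of the deposited order, most bars cross 0, and Spi1 has the turned mean of largest size, 0.49 ± 0.48, followed by Ctss at 0.44 ± 0.76.

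Probes of one gene often disagreed. Of the 38 genes, 17 had 1 probe and 21 had 2 to 4. Among the 21, all probes lay above 0.5 on both arrays of the first pair for 1 gene, Ctss, some but not all for 10, and none for 10. For Tlr2, one probe lay at 2.26 and 1.98 on the first pair, and the other at -0.09 and -0.14. For C3 the values were 1.28 and 1.42 against -0.07 and -0.01, and for Irf8 1.64 and 1.71 against 0.10 and -0.24 for the second probe and -0.28 and -0.08 for the third. One of 3 probes of Csf1r had 0.80 and 1.86, with arrays 41 and 42 at 0.13 and 0.55 for that probe, and the other 2 had 0.51 and -0.57, and 0.19 and -0.11. The mean over probes, as used above, is therefore smaller than the ratio of the highest probe for these genes. For Mertk the 2 probes had 0.22 and -0.07, and -0.12 and 0.81, on the first pair. No single probe of Csf1r or Mertk was thus above 0 on the first pair and below 0 on the second. These genes had that order only in the mean over probes. Which probe measures its transcript better cannot be judged without intensities.

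**Figure D5:**
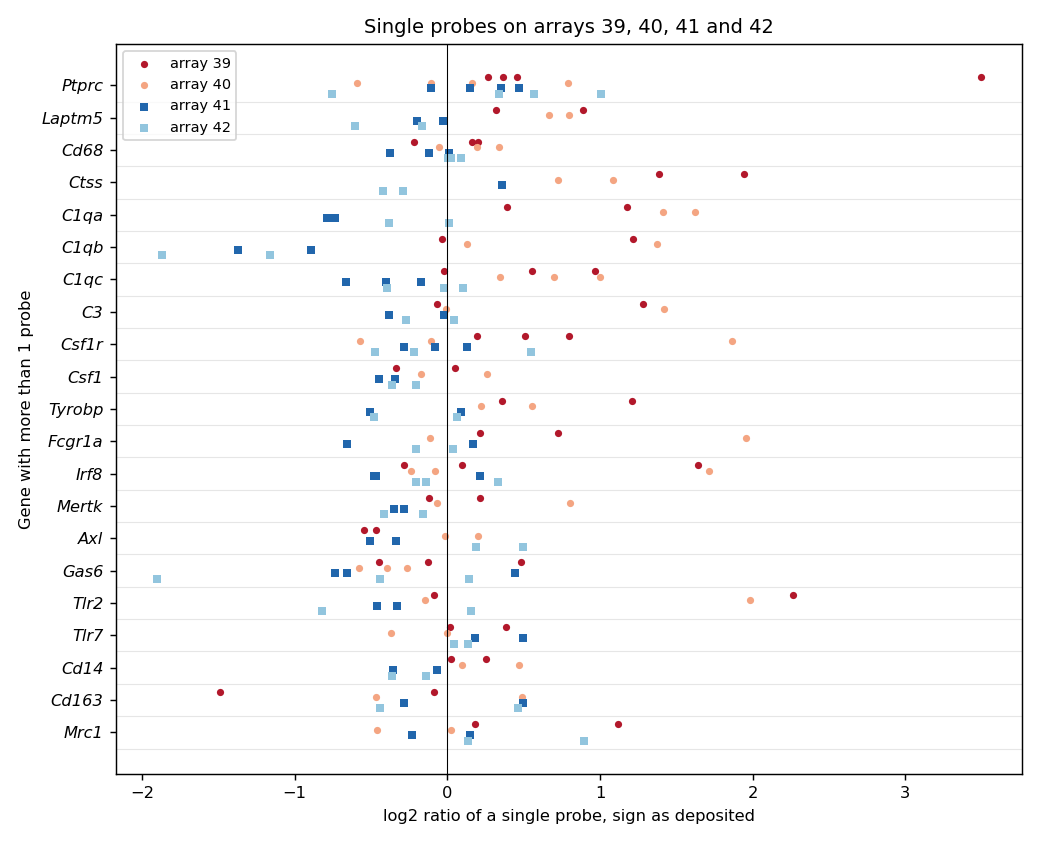
Log2 ratio of every single probe on arrays 39 and 40 (circles) and 41 and 42 (squares), sign as deposited, for the 21 genes with more than 1 probe. For Tlr2, C3 and Irf8 one probe lies beyond 1 on arrays 39 and 40 and the others lie near 0, while both C1qa probes lie to the right of 0 on the circles' arrays.

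Other genes of these pathways were read from lists that hold none of the 38. Among other microglia and macrophage genes, 40 of 48 were measured, 1 passed the test on the positive side and 0 on the negative side (0.568% and 1.62% of all genes). It was Ikzf1, the lymphoid and myeloid factor Ikaros, at 0.57 ± 0.19, between 0.45 and 1.03 on 8 of 8 arrays (limma adjusted p = 0.00829), and -0.05 with arrays turned (adjusted p = 0.869). Without the second pair Ikzf1 did not pass (0.59, limma adjusted p = 0.0531), nor with trend and robust variance (adjusted p = 0.0721) or averages of neighbouring arrays (adjusted p = 0.092). At an unadjusted p under 0.05 there were 11 of the 40 (13.1% of all genes). The list median was 0.22 and 0.14 on the first pair, -0.13 and -0.03 on the second pair, and from 0.03 to 0.09 on the rest. Above 0 on the first pair and below 0 on the second pair were 8 of the 40 (5.51% of all genes), Cx3cr1, Coro1a, Cd74, Runx1, Ptpn6, Ms4a6a, Spp1 and Adgre1. Above 0.5 on both arrays of the first pair were 5 of the 40 (1.59% of all genes), Sall1, Plek, Ptpn6, Mpeg1 and Tgfb1. With arrays turned, 9 of the 40 passed the test, where 28.1% of all genes did. Cx3cr1, the fractalkine receptor and a defining marker of microglia, ranged only from -0.21 to 0.23, with a mean of 0.00 ± 0.15.

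Of 33 other complement components and regulators 28 were measured. None passed in limma (2.19% of all genes), and 5 had an unadjusted p under 0.05 (13.1% of all genes). Their array medians lay between -0.16 and 0.08. Only Cfd, the protease that starts the alternative pathway, showed the order of Trem2 (5.51% of all genes). It lay at 0.92 and 1.10 on the first pair and -0.62 and -0.29 on the second pair. The largest means were those of C1ql3, a C1q-like synaptic protein, at 0.41 ± 0.31 (limma adjusted p = 0.0841), and C1r, the protease bound to C1q, at -0.26 ± 0.11, below 0 on 8 of 8 arrays (adjusted p = 0.0628). With arrays turned, 11 of the 28 passed, where 28.1% of all genes did.

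Of 20 genes that signal below TREM2, TYROBP and Fc receptors 17 were measured. None passed in limma (2.19% of all genes), 4 had an unadjusted p under 0.05 (13.1%), and 6 passed when turned (28.1%). Fcgr2a was the 1 gene of the 17 above 0 on the first pair and below 0 on the second (5.51% of all genes). Syk, the kinase recruited by TYROBP, lay at 0.93 and 1.01 on the first pair and at -0.04 and 0.07 on the second pair, with a mean of 0.46 ± 0.41 over 7 arrays, since array 71 gave no value (limma adjusted p = 0.15, turned 0.992). Fcgr2a, an activating IgG receptor, had 0.99 and 1.09, then -0.66 and -0.09, and a mean of 0.29 ± 0.57. Among 21 genes of Toll-like receptor signalling 18 were measured. None passed in limma (2.19% of all genes), 3 had an unadjusted p under 0.05 (13.1%), and 4 passed when turned (28.1%). Above 0 on the first pair and below 0 on the second were 5 of the 18 (5.51% of all genes), Tlr6, Cd180, Ly86, Irf5 and Tnf. Il1b, the gene of interleukin-1 beta, was above 0 on 8 of 8 arrays, from 0.10 on array 71 to 1.60 on array 39 (mean 0.63 ± 0.48, limma adjusted p = 0.0629, turned 0.477). The 3 probes of Il1b disagreed, with means from -0.06 to 1.27. Cd180, a Toll-like receptor homologue, stood at 2.96 on array 40 and between -0.19 and 0.36 on the other arrays.

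The genes outside the set whose profile was nearest to that of the myeloid-restricted genes were looked up among 14627 genes with 8 values. Likeness was the root mean square difference over the 8 arrays from the per-array median of the 31 myeloid-restricted genes, which was 0.65, 0.73, -0.20, -0.21, 0.12, 0.22, 0.12 and 0.19 in order of array number. The 12 nearest genes differed by 0.09 to 0.16 on the log2 scale, against a median of 0.49 over all genes compared. In order they were Cd1d1, a molecule that presents lipids to T cells, Abcb4, a phospholipid transporter, Slc15a3, a lysosomal peptide transporter, Arl11, a small GTPase of the ARF family, the kinase gene Tec, the C-type lectin gene Clec4a1, Gmfg, an actin regulator, the kinase gene Hipk1, the IgG receptor gene Fcgr3a, the nucleoside transporter gene Slc29a1, the myosin gene Myh7b and the chemokine gene Ccl6. Cd1d1, the nearest, lay at 0.66 on array 39, 0.53 on array 40, -0.22 on array 41, -0.17 on array 42 and between 0.05 and 0.14 on the others. Clec4a1 lay at 0.68, 0.56, -0.41 and -0.36 on arrays 39 to 42. None of the 12 passed the test on the mean (limma adjusted p from 0.245 to 0.831, turned from 0.419 to 0.993). The nearest of the 31 genes themselves were C1qc, Fcgr1a and Laptm5 at 0.13 each, and the farthest were Itgam at 0.71 and Spi1 at 0.77.

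Markers of other cell types were read on the same arrays. With the sign as deposited, none of 5 T cell markers, 5 neutrophil markers and the 2 measured of 4 B cell markers passed in limma (2.19% of all genes). Of these markers 0 had an unadjusted p under 0.05 (13.1% of all genes). Only 1, the neutrophil gene S100a8, lay above 0 on the first pair and below 0 on the second pair (5.51% of all genes). S100a8 stood at 1.57 on array 39 and 0.28 on array 40, while S100a9, its partner in the same protein complex, stood at -0.005 and -0.62. The 3 probes of S100a8 had means from -0.12 to 0.75. For endothelium (5 markers) and pericytes (3 of 4 measured) none showed that order or passed (0 at an unadjusted p under 0.05), and their array medians ranged from -0.12 to 0.30 and from -0.39 to 0.24. Among 5 markers of Müller glia and astrocytes Rlbp1 passed at 0.50 ± 0.31 (limma adjusted p = 0.0364), and Slc1a3 showed the order. Among 5 ganglion cell markers 2 passed (2.19% of all genes). They were Slc17a6, the vesicular glutamate transporter, at -0.64 ± 0.38 (limma adjusted p = 0.0257) and Thy1, a surface glycoprotein, at -0.30 ± 0.11 (limma adjusted p = 0.0317). Among 4 rod markers none passed, and 3 had an unadjusted p under 0.05 (13.1% of all genes), with the largest mean for Gnat1 at 0.44 ± 0.35. Rlbp1, Slc17a6 and Thy1 each kept 1 sign on 8 of 8 arrays, but with arrays turned their means were -0.05, 0.27 and 0.05 and none of these 3 passed. The passes above are for the sign as deposited. With arrays turned, where 28.1% of all genes passed, so did 2 of 5 T cell, 2 of 5 neutrophil and 1 of 2 B cell markers. So did 3 of 5 endothelial, 2 of 3 pericyte, 1 of 5 Müller glia and astrocyte, 3 of 5 ganglion cell and 1 of 4 rod markers. Leaving out single arrays took limma's adjusted p to between 0.0472 and 0.0938 for Rlbp1, 0.0227 and 0.0804 for Slc17a6, and 0.0528 and 0.105 for Thy1. With trend and robust variance it was 0.139, 0.0722 and 0.104 for these genes, and for averages of neighbouring arrays 0.163, 0.0942 and 0.124, so none of them passed there. The ganglion cell marker medians were -0.17 and -0.20 on the first pair and -0.30 and 0.09 on the second pair, and those of the rod markers 0.19 and -0.17, then 0.66 and 0.09. The part of other cell types in the differences between arrays was not tested.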

How the data were processed

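The values are log2 ratios from the authors' deposited table of 41048 probes on 8 two-channel Agilent arrays. The scanner software, background correction, normalization, numerator and centring are unstated in the sources used here. The log base was read from the values: 67 of 88 distances between the commonest values lay on a log2 of a ratio of whole numbers up to 12 (within 0.0011), against 20 for log10 and 2 for the natural log. Array medians lay between -0.08 and 0.03. Values of a size above 15 (73) or exactly 0 (574) were set missing, and 30 were missing as deposited. Probes with 1 symbol in the platform's probe table (23374) were updated by gene identifier through RefSeq's GRCr8 gene table (1 symbol changed) and averaged per gene. Probes with several symbols (48) or none (17626) were left out. Genes needed 6 arrays.

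Mean ratios were tested against 0, two-sided, with lmFit and eBayes of limma 3.58.1 (R 4.3.3), with Benjamini-Hochberg adjustment over all 14801 genes tested. The fit was tested on simulated data. Plots used matplotlib 3.10.9 under Python 3.11.15. Members, lists and array sets were chosen with earlier results of these data known, so no list test was made. Named genes were all measured members, up to 3 passing genes per list (otherwise the 2 of largest mean in size) and the 12 nearest profiles. The genes of other lists above 0 on arrays 39 and 40 and below 0 on 41 and 42 were named after their values were seen. So were the other microglia and macrophage genes above 0.5 on both arrays 39 and 40. Depth is unknown for ratios, and the 8 arrays limit precision.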

Additional observations from a re-analysis of the deposited data

Results flagged for a closer look

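In 6 of the 72 genes followed here, 1 array stood apart from the other 7 by more than Dixon's 95% limit for 8 values (0.526 of the range). For 8 values of equal spread chance gives about 1 such gene in 20. That share does not apply here, since some of the 72 genes were picked for a pass, a large mean or their profile. Itgb2 stood at 1.01 on array 40, with the next array at 0.26. Ptprc stood at 1.15 on array 39, with the next at 0.54. Cd163 stood at -0.79 on array 39, with the next at -0.20, and this rested on 1 of its 2 probes. Ikzf1 stood at 1.03 on array 69, with the next at 0.59. Cd180 stood at 2.96 on array 40, with the next at 0.36. S100a8 stood at 1.57 on array 39, with the next at 0.28. Of the 6 values, 5 lay on array 39 or 40. These 2 arrays also had the widest spread over all probes (SD 0.56 and 0.55, against 0.36 to 0.52 on the others).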

How the results depend on the processing

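Every setting but 2 left 0 of the 38 genes passing. The exceptions were the set of arrays as a covariate, with 1 gene (Gas6), and arrays 40, 42, 69 and 71 turned, with 3. Of these 3, Spi1 changed side to 0.49. Over the whole set, turning changed the side of the mean ratio for 19 of the 38 genes. The number of all genes passing, 324, was 57 without arrays 41 and 42, 0 without arrays 39, 40, 41 and 42, 928 with the covariate, 4161 turned, 0 for averages of neighbouring arrays, 523 where neighbours formed a random block and 45 with trend and robust variance. Leaving out 1 array gave 134 to 330, with 195, 188, 159, 205, 134 and 168 without arrays 41, 42, 43, 69, 70 and 71, 0 of the 38 genes, and a median of the 38 from 0.10 to 0.22. That median was 0.03 without arrays 39 and 40, and 10 of the 38 genes then changed side, none of them passing in either fit. The count of 20 genes high on arrays 39 and 40 and low on 41 and 42 was 18 to 21 under centring, scaling, the median of probes and extreme values kept, alternatives added after the data were seen. Some genes picked from the other lists for a pass or a large mean passed in either fit and changed side when turned. Their turned means were -0.052 for Ikzf1, 0.49 for Cd3e, 0.81 for Tek, -0.40 for Cldn5 and -0.26 for Rgs5. For Rlbp1, Slc17a6 and Thy1 they were -0.054, 0.27 and 0.055. Other picked genes changed side without passing, among them Cd180, Fcgr2a, S100a9 and Cd2. The cause of these changes was not tested. No paired analysis was possible because no 2 groups share replicate numbers: each array's ratio already sets both fractions against each other. Signal over background is unknown, so no limit from dim probes can be given.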
